A study of Mus musculus with 4 samples.

Results

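The semaphorins, plexins and neuropilins were followed in dermal cells of pregnant and virgin mice. Every probe set was taken whose only gene symbol was that of a semaphorin of classes 3 to 7, a plexin or a neuropilin. This gave 78 probe sets for 31 genes, made up of 20 semaphorins, 9 plexins and 2 neuropilins, out of 45101 probe sets on the array. All mice were female C57BL/6, 10 weeks old by the sample labels, and were injected into the skin 2 times a day for 4 days. The 4 groups were the abdominal (ventral) dermis of virgin mice given DMSO, the dorsal dermis of 15 dpc mice given DMSO, the abdominal dermis of 15 dpc mice given DMSO, and the abdominal dermis of 15 dpc mice given PP2 at 1 mM. PP2 inhibits kinases of the Src family, DMSO is its solvent, and dpc is days post coitum. Injections of the pregnant mice began at 12 dpc. The titles of the pregnant samples give 15 dpc and their descriptions 16 dpc.

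Each group was 1 Affymetrix array, and the sources used here do not say how many mice gave the RNA of an array. No value therefore has an error, and no difference was tested. A difference is given as a ratio of MAS5 signals (arbitrary units) and is called higher or lower where it is above 2-fold with a present call on the brighter array. The count of members is read against the percentage of all probe sets with 1 gene symbol that passed the same criterion. Probe sets differ in how well they bind, so the signal of 1 probe set is compared between arrays. Signals of different probe sets were put together only to choose the brightest of a gene and to sum marker lists. Such sums depend most on the brightest probe sets of a list.

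Semaphorins are secreted or membrane-bound guidance proteins, and plexins are their receptors. Plexins act on small GTPases and, through them, on the cytoskeleton and on cell adhesion. Class 3 semaphorins are secreted, and most need neuropilin 1 or 2 as the ligand-binding partner of a class A plexin, whereas Sema3e binds plexin D1 directly. Class 4 and 6 semaphorins span the membrane and bind class B and class A plexins. Neuropilins are also co-receptors for VEGF. In skin the family is known for guiding sensory axons and vessels, and for roles in immune cells.

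Most of the family was detected in the dermal preparations. A present call on at least 1 array was given to 57 of the 78 probe sets (73.1%, against 70.3% of all single-symbol probe sets), and on all 4 arrays to 47 (60.3% against 55.7%). In all, 26 of the 31 genes had a probe set present on all 4 arrays, which were 15 semaphorins, all 9 plexins and both neuropilins. Sema3f and Sema6a were present on some arrays, and Sema5b, Sema6b and Sema6c on none. The filter on present calls left 21 probe sets out of every comparison.

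The 4 arrays had 58.4% to 59.7% of probe sets present. The Gapdh control probe sets gave 3′/5′ ratios of 1.41 to 2.97 on the DMSO arrays and 5.84 on the PP2 array. The actin control probe sets gave 2.03 to 4.14 on the DMSO arrays, highest on the dorsal one, and 2.70 on the PP2 array. These 2 measures of RNA or labelling quality thus differed in which array was highest. Both were lowest on the abdominal 15 dpc array (1.41 and 2.03), to which the other arrays are compared below. The part of this in the ratios was not tested. Col1a1, Pdgfra, Pecam1 and Cdh5 were present on every array, as were Krt5 and Krt14 of keratinocytes and Ptprc of leukocytes. Of 14 lists of cell type markers, the hair follicle matrix and shaft list differed most, with summed signals of 2575 (virgin), 3391 (dorsal), 21098 (abdominal 15 dpc) and 4652 (PP2). The keratinocyte list summed to 76693, 132577, 99892 and 59164 in the same order. In RNA of a whole preparation, fewer cells of a type and less RNA per cell cannot be told apart.

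Most member probe sets that passed the criterion belonged to class 3 semaphorins or to Sema4f. Against virgin abdominal skin, 5 of the 55 member probe sets that entered were higher in 15 dpc abdominal skin (9.09%, against 3.48% of all probe sets), and 0 were lower (against 4.08%). All 5 belonged to class 3, from Sema3a, Sema3c, Sema3d and Sema3e. Against 15 dpc dorsal skin, 4 of 57 were higher (7.02%, against 5.51%) and 6 lower (10.5%, against 5.75%). Against PP2-injected abdominal skin, 6 of 57 were higher (10.5%, against 7.89%) and 3 lower (5.26%, against 3.39%). Of those higher than in virgin, dorsal and PP2-injected skin, 1 of 5, 2 of 4 and 4 of 6 were present on the brighter array only. Of those lower, this held for 1 against dorsal and 1 against PP2-injected skin. The median log2 ratio of the members was 0.17, -0.09 and 0.13 in the 3 comparisons, beside 0.03, 0.03 and 0.05 for all probe sets. The 3 comparisons share the 15 dpc abdominal DMSO array.

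With 1 probe set a gene, that of the highest mean log2 signal, 27 genes entered and the counts were smaller. Sema3c alone was higher than in virgin skin (3.70%, against 3.41% of all genes) and no gene was lower (against 3.55%). Sema3a alone was higher than in dorsal skin (3.70%, against 5.25%), and Plxnb3, Sema3d and Sema4f were lower (11.1%, against 4.96%). Sema3g was higher than in PP2-injected skin (3.70%, against 4.89%) and Sema4f lower (3.70%, against 3.74%). Counted by gene, the shares in the virgin and PP2 comparisons were thus close to or below those of all genes.

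**Figure D1:**
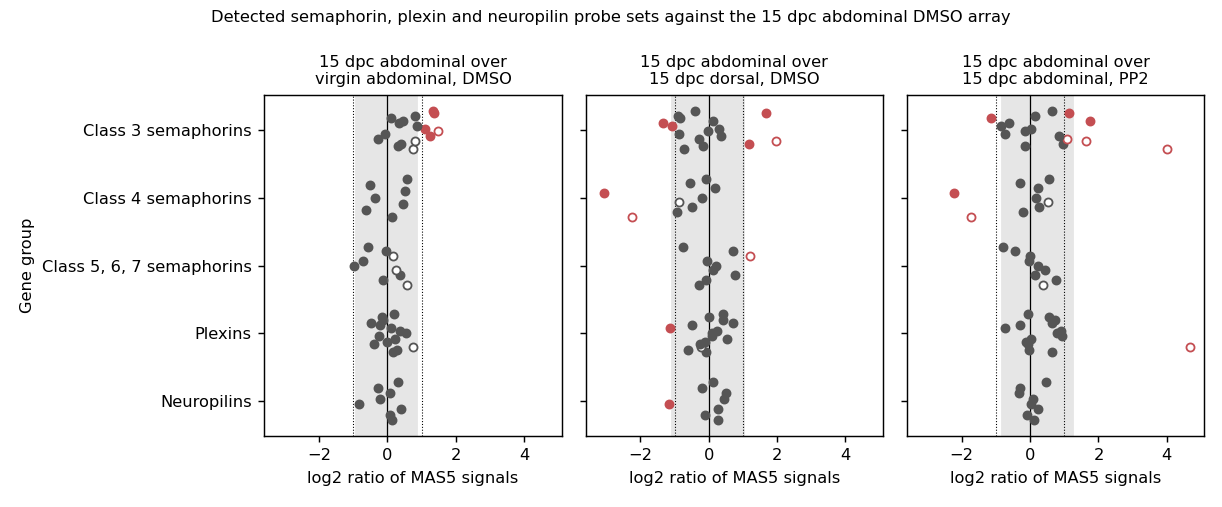
Log2 ratio of MAS5 signals (x axis) of each detected semaphorin, plexin and neuropilin probe set, by gene group, for the 15 dpc abdominal DMSO array over each other array. Red points passed the 2-fold criterion, open points were not called present on both arrays, dotted lines mark 2-fold, and the grey band holds all probe sets from the 5th to the 95th percentile; against the virgin array the class 3 points lie to the right, with a median of 0.78.

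Class 3 semaphorins had the highest median of the gene groups against virgin skin. Of their 18 probe sets 16 entered, 5 were higher and 0 lower, beside 3.48% and 4.08% of all probe sets, and the median log2 ratio was 0.78, against medians between -0.04 and 0.14 for the other groups. Against dorsal skin, 3 class 3 probe sets were higher and 2 lower (median -0.22), beside 5.51% and 5.75% of all probe sets. Against PP2-injected skin 5 were higher and 1 lower (median 0.40), beside 7.89% and 3.39%. Of these 5, Sema3a 1420417_at, Sema3b 1416644_a_at and Sema3f 1420508_at had no present call on the PP2 array. Sema3d, Sema3a, Sema3e and Sema3c, the 4 genes with a probe set higher than in virgin skin, lie in this order on chromosome 5, with 0, 3 and 15 protein-coding genes between neighbours in the RefSeq annotation of GRCm38.p6.

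The bases upstream of these chromosome 5 genes and of Sema4f are shown because they hold very different amounts of CpG. Sema4f differed most from dorsal skin. Each of the chromosome 5 genes had a probe set higher than in virgin skin, but only Sema3c passed on its brightest probe set. Each window is the 250 bases before the annotated start of the RefSeq gene in GRCm38.p6, written 5′ to 3′ on the strand of the gene, with CpG in capitals.
Sema3d, chr5:12382916-12383165, plus strand: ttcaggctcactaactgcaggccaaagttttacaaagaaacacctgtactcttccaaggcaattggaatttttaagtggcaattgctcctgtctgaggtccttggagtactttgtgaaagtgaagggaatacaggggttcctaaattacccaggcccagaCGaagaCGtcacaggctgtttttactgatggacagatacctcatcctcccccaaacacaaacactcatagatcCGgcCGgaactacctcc
Sema3a, chr5:13396534-13396783, plus strand: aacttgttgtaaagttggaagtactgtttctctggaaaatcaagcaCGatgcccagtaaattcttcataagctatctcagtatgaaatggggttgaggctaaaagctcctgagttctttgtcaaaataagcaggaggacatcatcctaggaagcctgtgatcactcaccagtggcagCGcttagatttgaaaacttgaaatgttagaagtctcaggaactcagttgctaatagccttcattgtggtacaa
Sema3e, chr5:14025026-14025275, plus strand: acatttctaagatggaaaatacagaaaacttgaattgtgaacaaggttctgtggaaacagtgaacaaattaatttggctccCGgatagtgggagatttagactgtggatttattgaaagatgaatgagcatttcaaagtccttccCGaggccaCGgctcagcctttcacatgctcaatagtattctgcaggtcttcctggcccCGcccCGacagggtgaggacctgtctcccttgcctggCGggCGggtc
Sema3c, chr5:17574566-17574815, plus strand: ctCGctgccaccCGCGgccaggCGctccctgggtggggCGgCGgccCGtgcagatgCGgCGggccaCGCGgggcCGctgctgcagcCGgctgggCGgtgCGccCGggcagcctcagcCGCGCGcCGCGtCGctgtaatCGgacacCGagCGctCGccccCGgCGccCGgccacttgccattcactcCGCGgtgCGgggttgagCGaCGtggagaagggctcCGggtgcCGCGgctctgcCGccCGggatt
Sema4f, chr6:82939770-82940019, minus strand: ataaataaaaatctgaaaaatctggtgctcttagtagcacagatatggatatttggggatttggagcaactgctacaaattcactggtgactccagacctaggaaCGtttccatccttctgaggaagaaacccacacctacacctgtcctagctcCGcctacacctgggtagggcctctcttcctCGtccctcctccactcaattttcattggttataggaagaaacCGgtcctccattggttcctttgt

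The Sema3a window held 2 CpG, those of Sema3d and Sema4f 4 each, that of Sema3e 7 and that of Sema3c 39, where the median of all 32851 RefSeq windows was 6. As few CpG as in the Sema3a window were found in 29.0% of all windows, and as few as in the Sema3c window in 98.7%. A GC box (GGGCGG, on either strand, itself holding a CpG) occurred 3 times upstream of Sema3c and 2 times upstream of Sema3e, and in 32.7% of all windows. The LEF/TCF core CTTTGA, found in 13.8% of all windows, occurred 1 time upstream of Sema3e. The TATA box TATAAA (12.4% of windows), the E-box CACGTG (6.02%) and the hormone receptor half-site AGAACA (16.1%) were in none of the 5. Windows were found for 26 of the 31 genes, and not for Plxna1, Plxna4, Sema3b, Sema3f and Sema6a.

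Sema3a, the axon repellent that signals through neuropilin 1 and class A plexins, had its brightest array in 15 dpc abdominal skin on all 3 probe sets. Probe set 1420416_at gave signals of 349 (virgin), 204 (dorsal), 463 (abdominal 15 dpc) and 236 (PP2), all present. Probe set 1449865_at gave 68.0, 54.9, 176 and 79.5, all present. Probe set 1420417_at gave 57.7, 26.1, 101 and 32.2, with a present call only on the abdominal 15 dpc array. On the first 2 the dorsal array was the dimmest. Probe set 1449865_at was 2.58-fold higher than in virgin skin, 3.19-fold higher than in dorsal skin and 2.21-fold higher than in PP2-injected skin. It was the only member probe set above 2-fold over each of the other 3 arrays (1.75% of 57, against 0.809% of all probe sets). With quantile normalization it was no longer above 2-fold over the PP2 array (log2 ratio 0.86 in place of 1.14). The brightest Sema3a probe set was 1.33-fold over virgin, 2.27-fold over dorsal and 1.96-fold over PP2-injected skin.

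By summed signal, the hair follicle list had the same brightest array as Sema3a. So did the blood endothelial, lymphatic endothelial, smooth muscle and pericyte, and adipocyte lists. On that array Fabp4 alone gave 41761 of the adipocyte sum of 50624. The hair follicle sum was lowest on the virgin array. The lymphatic endothelial, smooth muscle and pericyte, and adipocyte sums were lowest on the dorsal array, where the Sema3a probe sets present on all arrays were dimmest. Of the 19 hair follicle genes, 17, 16 and 16 were more than 2-fold higher on the abdominal 15 dpc array than on the virgin, dorsal and PP2 arrays. In the same order 0, 1 and 1 were more than 2-fold lower, with median log2 ratios of 3.89, 3.85 and 2.51. Most of these genes had no present call on the virgin and dorsal arrays, so the size of these ratios rests on undetected signals. The part of hair follicle cells, or of any other of these cell types, in the Sema3a signals was not tested.

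Sema3c, which binds neuropilins and acts through plexin D1 in vessels, was above 2-fold over virgin skin on both probe sets in abdominal 15 dpc skin. Probe set 1429348_at gave 1237 (virgin), 2163 (dorsal), 2646 (abdominal 15 dpc) and 2585 (PP2), and probe set 1420696_at gave 137, 251, 325 and 179. On both, the virgin array was the dimmest and the abdominal 15 dpc array the brightest. The ratios of 15 dpc over virgin abdominal skin were 2.14-fold and 2.38-fold, while those over dorsal skin were 1.22-fold and 1.30-fold. The comparison with PP2 differed between the probe sets, at 1.02-fold and 1.81-fold.

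Sema3d, a secreted semaphorin that binds neuropilin 1, was dimmest in virgin skin and brightest in dorsal skin. Probe set 1429459_at gave 674 (virgin), 2558 (dorsal), 1231 (abdominal 15 dpc) and 2219 (PP2), and probe set 1453148_at gave 162, 538, 410.3 and 263. Both agreed on the lowest and the highest array and disagreed on PP2, which was 1.80-fold above abdominal 15 dpc skin on the first and 1.56-fold below it on the second. Over virgin skin the ratios were 1.83-fold and 2.54-fold. Below dorsal skin they were 2.08-fold and 1.31-fold, and the first was under 2-fold when each array was scaled to the median of its present probe sets (log2 ratio -0.98 in place of -1.06).

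Sema3e, the ligand of plexin D1, gave different answers from its 4 probe sets. Probe set 1427673_a_at gave 104 without a present call (virgin) and 291, 289 and 320.2 with one (dorsal, abdominal 15 dpc and PP2). It was at least 2.78-fold higher in 15 dpc than in virgin abdominal skin, and was the only member probe set more than 2-fold lower on the virgin array than on each other array (1.75%, against 0.403%). Probe set 1442226_at gave 315, 614, 341 and 745, so that the abdominal 15 dpc signal was near the virgin one and 2.19-fold below PP2. The brightest, 1419717_at, gave 959, 1318, 1180.5 and 1309, and 1425906_a_at gave 105, 180.0, 99.1 and 163, where no ratio to abdominal 15 dpc skin passed 2-fold. The suffix _a_at marks a probe set that matches several transcripts of 1 gene.

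Sema3b, which signals through both neuropilins, was brightest in dorsal skin on all 3 probe sets. Probe set 1448415_a_at gave 832 (virgin), 2722 (dorsal), 1469.6 (abdominal 15 dpc) and 1323 (PP2), and 1431795_a_at gave 269.9, 861, 338 and 523. The second was 2.54-fold lower in abdominal than in dorsal skin and the first 1.85-fold lower. Probe set 1416644_a_at gave 107 and 11.2 without present calls in virgin and PP2-injected skin, and 296 and 179 with them in dorsal and abdominal 15 dpc skin. It was above 2-fold over PP2, where the other 2 were 1.11-fold higher and 1.55-fold lower than PP2.

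Sema3g, a class 3 semaphorin known from arterial endothelium, stood apart on the PP2 array. Its single probe set gave 2222 (virgin), 2771 (dorsal), 3032 (abdominal 15 dpc) and 906 (PP2), all present. The 3 DMSO arrays lay close together and PP2 was 3.35-fold below abdominal 15 dpc skin. Sema3f, a ligand of neuropilin 2, gave 237, 238 and 197 on the DMSO arrays and 93.0 with a marginal call on the PP2 array with probe set 1420508_at. Its ratio of at least 2.11-fold over PP2 fell to a log2 ratio of 0.97 after scaling to the median and 0.81 after quantile normalization, from 1.08. The other 2 Sema3f probe sets were present on no array. Sema3g and Sema3f were the member probe sets more than 2-fold lower on the PP2 array than on each other array (2 of 57, 3.51%, against 2.23%).

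Endothelial markers were partly lower on the PP2 array too. Of the 13 blood endothelial genes, 2 were more than 2-fold higher in abdominal 15 dpc than in PP2-injected skin, with a median log2 ratio of 0.42. The summed signals of the list were 48093 (virgin), 40647 (dorsal), 51408 (abdominal 15 dpc) and 40339.8 (PP2). The Sema3g signals in the same order were 2222, 2771, 3032 and 906. Pecam1 gave 2044 (virgin), 2238 (dorsal), 2994 (abdominal 15 dpc) and 906 (PP2), whereas Cdh5 gave 3399, 3344, 4659 and 3967. The part of endothelial content, and that of the higher Gapdh 3′/5′ ratio of this array, in the Sema3g signal was not tested.

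**Figure D2:**
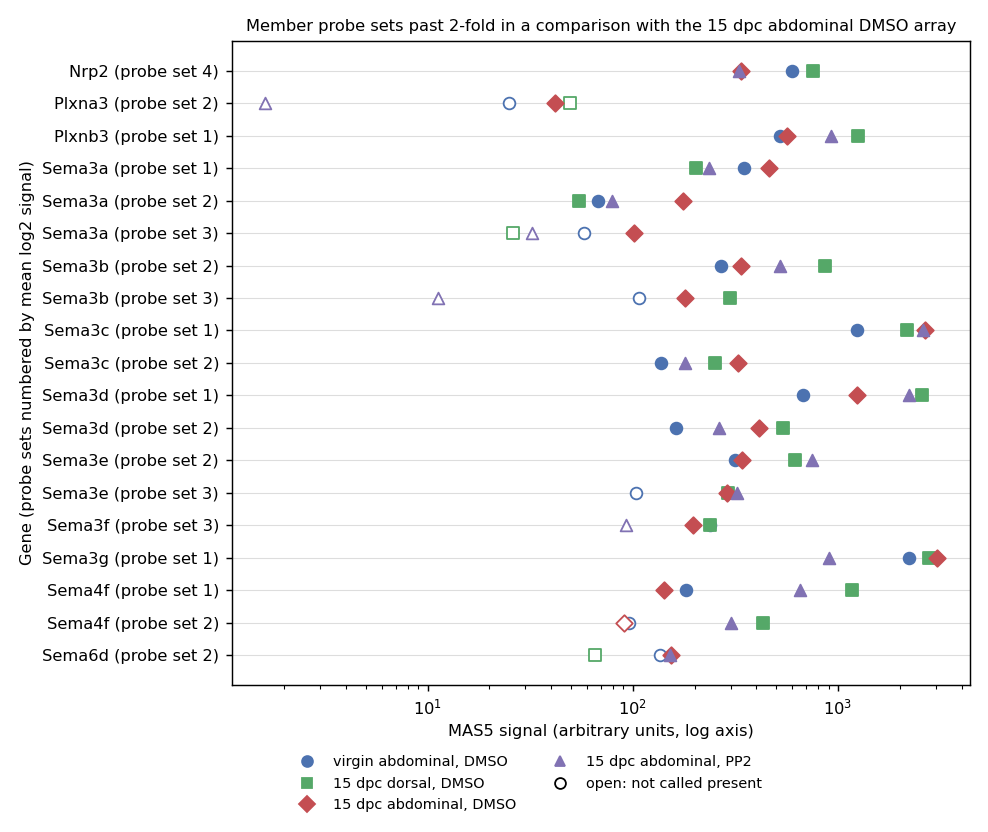
MAS5 signal (log x axis, arbitrary units) on the 4 arrays of the 19 member probe sets above 2-fold in a comparison with the 15 dpc abdominal DMSO array, where an open symbol had no present call. The red diamond (abdominal 15 dpc) is rightmost for all 3 Sema3a probe sets, and the green square (dorsal) and violet triangle (PP2) lie to the right for Sema4f.

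Class 4 semaphorins did not differ by 2-fold from virgin skin (0 higher and 0 lower of 7, beside 3.48% and 4.08% of all probe sets). Of 9 that entered, 2 were lower in abdominal 15 dpc skin than in dorsal skin (5.75% of all) and than in PP2-injected skin (3.39% of all). In both comparisons these were the 2 probe sets of Sema4f. Sema4f is a transmembrane semaphorin of neurons and glia. Probe set 1439768_x_at gave 182 (virgin), 1176 (dorsal), 142 (abdominal 15 dpc) and 655 (PP2), all present. Probe set 1419328_at gave 95.9 and 90.7 without present calls in virgin and abdominal 15 dpc skin, and 429 and 301 with them in dorsal and PP2-injected skin. Both probe sets put the virgin and abdominal 15 dpc arrays together at the bottom, PP2 above them and the dorsal array at the top. Against abdominal 15 dpc skin, dorsal skin was 8.31-fold higher on the first and at least 4.73-fold on the second, and PP2-injected skin 4.63-fold and at least 3.32-fold. As large a decrease from dorsal skin was seen in 19 of 20557 probe sets present on both arrays (0.0924%). The suffix _x_at marks probes that may bind other transcripts, and the second probe set does not carry it.

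No other class 4 gene passed the criterion against abdominal 15 dpc skin. Sema4d, the ligand of plexin B1 and CD72, gave 180.0, 378, 199 and 231 on its brightest probe set, which was 1.90-fold higher in dorsal than in abdominal 15 dpc skin. Sema4c, which binds plexin B2, gave 1629, 1474, 1051 and 880.3 and was 1.55-fold lower than in virgin skin. The detected probe sets of Sema4a, Sema4b and Sema4g were within 1.49-fold of abdominal 15 dpc skin on every array.

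Part of the Schwann cell markers were, like Sema4f, highest on the dorsal array and next on the PP2 array. Of the 8 genes of that list on the array with 1 symbol, 0 were more than 2-fold higher and 4 more than 2-fold lower in abdominal 15 dpc than in dorsal skin (median log2 ratio -1.04, range -2.03 to 0.70), and 2 lower than in PP2-injected skin (median -0.28). Against virgin skin none passed 2-fold (median 0.40). Of the defining genes, Sox10 gave 561 (virgin), 3162 (dorsal), 864 (abdominal 15 dpc) and 1719.9 (PP2), and Cdh19 gave 822, 5231, 1277 and 4558. S100b gave 1603, 4306, 1527 and 3616, and Ngfr and Erbb3 were also highest on the dorsal and next on the PP2 array. Mbp, Mag and Pmp22 did not follow them. The myelin gene Mbp gave 27387, 25472, 26896 and 18580.0, Mag 338, 257, 415 and 266, and Pmp22 20484, 19044, 20559 and 17725. The summed signals of the list were 53375, 63728, 55116 and 50565, with Mbp and Pmp22 the largest parts of each. None of these 8 markers was at 0. The part of Schwann cell content in the Sema4f signals was not tested.

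**Figure D3:**
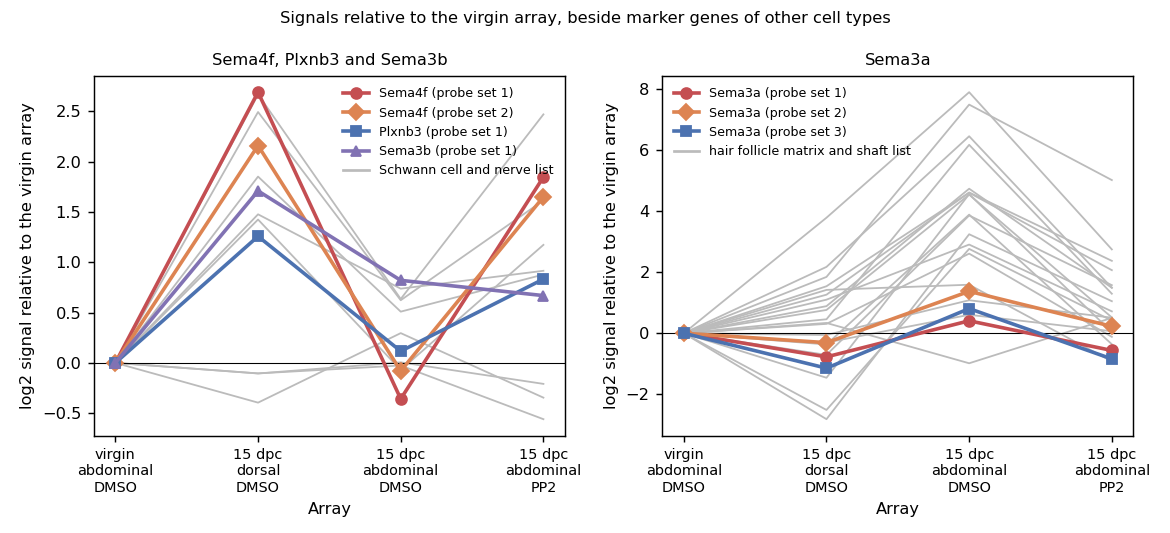
Log2 signal relative to the virgin array (y axis) on the 4 arrays (x axis), for Sema4f, Plxnb3 and Sema3b beside the 8 Schwann cell markers in grey (left), and for the 3 Sema3a probe sets beside the 19 hair follicle genes in grey (right). Sema4f peaks on the dorsal array as do Sox10 and Cdh19, whereas Mbp, Mag and Pmp22 do not. Sema3a peaks on the abdominal 15 dpc array with a smaller range than most hair follicle genes. The second Sema4f and the third Sema3a probe set had arrays without a present call. Most hair follicle genes had no present call on the virgin array, to which all lines are relative.

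Among classes 5, 6 and 7, 1 of 9 probe sets passed the criterion, as higher than in dorsal skin, beside 5.51% of all probe sets. Sema6d, a ligand of plexin A1, was at least 2.33-fold higher in abdominal 15 dpc than in dorsal skin on probe set 1448060_at, which gave 136 without a call (virgin), 65.8 marginal (dorsal), 153 (abdominal 15 dpc) and 152 (PP2). Its brightest probe set gave 1669, 986, 1626 and 2188 and was 1.65-fold higher than in dorsal skin. Sema6d probe set 1446536_at, present on all 4 arrays, did not show this. It gave 139.6, 87.7, 84.6 and 85.8, with a log2 ratio over dorsal skin of -0.05. Sema5a, a ligand of plexin B3, gave 3145 (virgin), 1380.1 (dorsal), 1593 (abdominal 15 dpc) and 1344 (PP2) on its brightest probe set. Virgin skin was thus brighter than all pregnant skin and lay just outside the criterion at 1.97-fold above abdominal 15 dpc, and passed it after quantile normalization, which changed the counts against virgin skin to 5 higher and 1 lower. The other present Sema5a probe sets did not show this, with log2 ratios over virgin skin of 0.38 and -0.14. Sema7a, the membrane-anchored ligand of plexin C1 and integrins, gave 2022, 2330.4, 1376 and 2368 on its brightest probe set, lowest in abdominal 15 dpc skin, with ratios of 1.47-fold, 1.69-fold and 1.72-fold. Sema6a, a ligand of class A plexins, gave 223 with a marginal call in virgin skin and 242, 263 and 194 with present calls elsewhere.

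Of the 22 plexin probe sets 15 entered. None was above 2-fold higher or lower than in virgin skin (3.48% and 4.08% of all probe sets were), 1 was lower than in dorsal skin (5.75% of all) and 1 higher than in PP2-injected skin (7.89% of all), counts too small to set apart from those shares. The median log2 ratio over PP2 was 0.55, against 0.05 for all probe sets, but it counts some genes with several probe sets. On the brightest probe set of each gene the signs were mixed. Plxna2, Plxnb1, Plxnb2 and Plxnd1 had 0.55, 0.90, 0.65 and 0.65, and Plxna1 had 0.02. Plxna3, Plxna4, Plxnb3 and Plxnc1 had -0.05, -0.30, -0.72 and -0.13. Plxnb3, the receptor of Sema5a, gave 520.3 (virgin), 1245 (dorsal), 564 (abdominal 15 dpc) and 927 (PP2) on probe set 1440813_s_at and 277, 513, 336 and 344 on 1418750_at. On both the dorsal array was the brightest, by 2.21-fold and 1.52-fold over abdominal 15 dpc skin. Plxna3, a receptor for Sema3f, gave 41.9 with a present call on the abdominal 15 dpc array and 25.0, 49.3 and 1.62 without one on the virgin, dorsal and PP2 arrays, with probe set 1420995_at. Its ratio over PP2 was at least 10.6-fold, at low signals, while its other probe set, present on all 4 arrays, gave 382, 350.3, 292 and 302.

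Plxnd1, the plexin of vessels and receptor of Sema3e, gave 2609.5 (virgin), 1139 (dorsal), 1869.7 (abdominal 15 dpc) and 1188 (PP2). Both abdominal DMSO arrays were above the dorsal and PP2 arrays, and abdominal 15 dpc skin was 1.64-fold and 1.57-fold above these. Plxnb1, the receptor of Sema4d, was 1.86-fold and 1.74-fold above PP2 on its 2 probe sets, and Plxnb2, the receptor of Sema4c, 1.56-fold. Plxna2, a receptor of Sema6a, was 1.89-fold, 1.64-fold and 1.46-fold above PP2 on 3 probe sets and 1.04-fold below it on the other. Plxna1 and Plxna4, which pair with neuropilin 1, were within 1.46-fold on their present probe sets. Plxnc1, the receptor of Sema7a, was present with 1 of 6 probe sets, at 87.6, 94.3, 87.6 and 95.5.

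Neuropilins were present with all 8 probe sets, and 1 of the 24 ratios passed 2-fold. It was 1 of 8 lower than in dorsal skin, beside 5.75% of all probe sets, a count too small to set apart from that share. None passed against virgin skin (3.48% of all were higher and 4.08% lower) or PP2-injected skin (7.89% and 3.39%). Nrp1, the main binding partner of Sema3a and a VEGF co-receptor, gave 6428 (virgin), 4059 (dorsal), 5548 (abdominal 15 dpc) and 5204 (PP2) on its brightest probe set. Its 4 probe sets were 1.10-fold to 1.42-fold higher in abdominal 15 dpc than in dorsal skin. Nrp2, the binding partner of Sema3f, gave 2985, 2887, 2499 and 3050.2 on its brightest probe set, without a clear order. Probe set 1447343_at of Nrp2 gave 596, 756, 338 and 329.7 and was 2.24-fold lower in abdominal 15 dpc than in dorsal skin. The other 3 Nrp2 probe sets had log2 ratios of -0.21, -0.11 and 0.27 in that comparison, so the gene as a whole had no common direction.

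The dorsal and PP2 arrays were also set against the virgin array, from which each differs in more than 1 condition. Of 54 member probe sets that entered, 11 were more than 2-fold higher in 15 dpc dorsal than in virgin abdominal skin (20.4%, against 4.96% of all probe sets) and 2 lower (3.70%, against 4.33%). Those higher were all 3 Sema3b probe sets, both of Sema3d, both of Sema4f, 2 of Sema4d and 1 each of Sema3e and Plxnb3, and those lower were Plxnd1 and Sema5a. In PP2-injected 15 dpc over virgin abdominal skin, 6 of 53 were higher (11.3%, against 3.08%), from Sema3c, Sema3d, Sema3e and Sema4f, and 5 lower (9.43%, against 7.49%), from Plxna2, Plxnd1, Sema3f, Sema3g and Sema5a. These pairs share the virgin array, and no difference was tested. Their counts are of probe sets, several of them from the same gene, and were not made with 1 probe set a gene.

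Probe sets of 1 gene often disagreed in sign. Among 13 member genes with at least 2 probe sets present on all 4 arrays, the signs were the same in 8, 9 and 8 genes in the comparisons with virgin, dorsal and PP2-injected skin. Over all genes with such probe sets the shares were 50.3%, 53.9% and 51.6% of 4943.

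The genes of the wider pathway are given with 1 probe set a gene, for which 3.41%, 5.25% and 4.89% of all genes were higher and 3.55%, 4.96% and 3.74% lower in the comparisons with virgin, dorsal and PP2-injected skin. Of the 8 VEGF ligands and receptors, 0 passed 2-fold against virgin or dorsal skin and 1 was lower than in PP2-injected skin. This was Vegfa, a ligand of Nrp1, at 749.6 (virgin), 432 (dorsal), 416 (abdominal 15 dpc) and 974 (PP2), which was 2.34-fold brighter in PP2-injected skin. Of 9 detected co-receptors and other receptors, 0 were higher and 1 lower than in virgin skin, 1 higher and 1 lower than in dorsal skin, and 1 higher and 0 lower than in PP2-injected skin. L1cam, which joins Nrp1 in the Sema3a receptor, gave 1016, 2554, 952 and 1329 and was 2.68-fold brighter in dorsal than in abdominal 15 dpc skin. Itgb1, an integrin chain bound by Sema7a, gave 1389, 1279, 2223 and 966 and was 2.30-fold above PP2. Ptprc, the leukocyte phosphatase CD45, gave 491, 85.3, 174 and 159, highest in virgin skin, 2.83-fold above abdominal 15 dpc skin, and lowest in dorsal skin.

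Downstream of the plexins, 32 of 33 signalling genes were detected. Of those that entered, 1 was higher and 2 lower than in virgin skin, 0 higher and 2 lower than in dorsal skin, and 1 higher and 2 lower than in PP2-injected skin. Limk1, the kinase that acts on cofilin, gave 374 (virgin), 723 (dorsal), 219.6 (abdominal 15 dpc) and 357 (PP2) and was 3.29-fold brighter in dorsal than in abdominal 15 dpc skin. Dpysl3, of the collapsin response mediators, gave 1203, 998, 557 and 1435 and was lowest in abdominal 15 dpc skin, by 2.16-fold from virgin and 2.58-fold from PP2-injected skin. Dpysl4, of the same family, gave 197, 183, 94.2 and 192 and was also lowest there, by 2.09-fold and 2.03-fold. Tiam1, an activator of Rac, gave 1005, 2059, 2236 and 1759 and was lowest in virgin skin, 2.22-fold below abdominal 15 dpc skin. Of the 7 proteases that process semaphorins 0 passed 2-fold against virgin or dorsal skin, and Mmp14 was 2.06-fold brighter in PP2-injected skin, at 3407, 4254, 3318 and 6851.

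**Figure D4:**
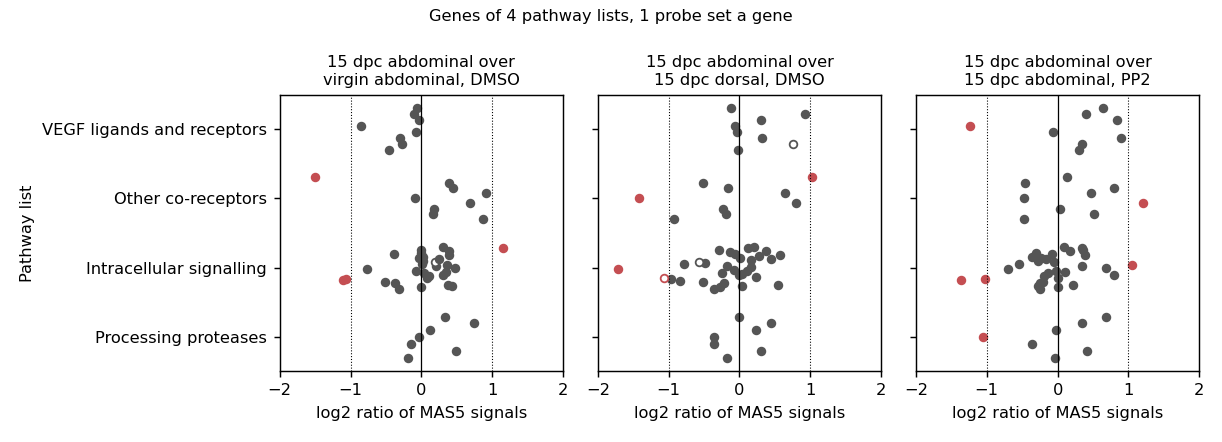
Log2 ratio of MAS5 signals (x axis) of the genes of 4 pathway lists, 1 probe set a gene, for the 15 dpc abdominal DMSO array over each other array. Red points are above 2-fold (dotted lines), open points were not called present on both arrays, and most genes of every list lie between the dotted lines.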

How the data were processed

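Dermal cells were released from skin by scraping and digestion with collagenases, hyaluronidase and DNase, and total RNA was labelled (GeneChip 3′ IVT Express Kit) for hybridisation to mouse arrays, 1 per group. The authors computed MAS5 signals (intensities on a linear scale) and detection calls in Affymetrix Expression Console version 1. The deposited intensities had a mean of 500.0 on each array after trimming 2% at each end. The deposited value table of the series differed from the array files for 0 probe sets, and 0 value columns lacked a sample. Genes were named from the platform annotation, where 34958 probe sets had 1 symbol and 932 several, and all 78 member identifiers matched RefSeq.

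Ratios were taken of the deposited signals with Python 3.11.15, pandas 2.3.3 and numpy 2.4.6. A probe set entered where it was present on at least 1 array compared. For a dimmer array without a present call, a fold is written as at least the ratio to the higher of its own signal and the dimmest present signal of that array (3.96 to 10.7). The calling steps were tested on simulated data. Members above 2-fold in any comparison and the brightest ones are given with all 4 signals, the others by range. Of each pathway list up to 4 genes are named. The members and lists were chosen with earlier results of these data known. Alternatives were another scaling, quantile normalization, other detection filters, a ratio of 1.5, 1 probe set a gene and an offset of 50. Arrays give no read depth, and their number limits the precision.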

Additional observations from a re-analysis of the deposited data

How the results depend on the processing

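Of the 24 log2 ratios above 2-fold, none of their 72 values under another scaling, quantile normalization or an offset of 50 turned its sign, and 11 were no longer above 2-fold, 7 of them with the offset, 2 after scaling to one median and 2 after quantile normalization. The offset ended calls of the 2 dimmer Sema3a probe sets and those of Plxna3, Sema3f and Sema6d (for Plxna3 the log2 ratio with the offset was 0.83, where the report gives at least 10.6-fold). The cause was not tested. The counts moved more. Without a detection filter, 10 members were higher and 2 lower than in virgin skin (5 and 0 in the report), 9 higher than in dorsal skin (4), 10 higher and 5 lower than in PP2-injected skin (6 and 3), and 2 higher than on each other array (1). With present calls on both arrays, 2 were higher than in dorsal and 2 higher than in PP2-injected skin. Above 1.5-fold, 10 were higher and 4 lower than in virgin skin, 7 higher and 14 lower than in dorsal skin, 16 higher and 8 lower than in PP2-injected skin, and 2 higher than on each other array. With 1 probe set a gene, 1 was higher than in virgin skin, 1 higher and 3 lower than in dorsal skin, 1 higher and 1 lower than in PP2-injected skin, and 0 higher than on each other array. With an offset of 50, 2 were higher than in dorsal skin, 2 higher than in PP2-injected skin and 0 higher than on each other array. After quantile normalization 1 was lower than in virgin skin (Sema5a) and 0 higher than on each other array. The median of the members against dorsal skin was -0.09, -0.01 after scaling to one median and 0.02 without a detection filter, so its sign was not stable. Scaling to one median moved the median of all probe sets present on both arrays over PP2 from 0.04 to -0.07. An alternative chosen after seeing the data, without the PP2 array, gave 1 member above both other arrays, and by its construction could not have lost the Sema3a probe set. No paired analysis was possible because each group had 1 array.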
